A study of Homo sapiens with 3 samples.

Results

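Iron handling and defence against oxidants were followed in THP-1 cells through 10 genes, chosen by name and read from the rows that carry their UniProt protein accessions. They are FTH1 (P02794), FTL (P02792), TFRC (P02786), SLC40A1 (Q9NP59), HMOX1 (P09601), NQO1 (P15559), GCLM (P48507), GPX4 (P36969), TXNRD1 (Q16881) and SOD2 (P04179). Of the 10 accessions, 9 were analysed here, out of 213543 features in the count table, and 5 of them reached 10 counts in at least 1 library. THP-1 is an established human cell line from an acute monocytic leukemia that carries the MLL-AF9 fusion. The 3 RNA-seq libraries came from control cells without the inhibitor (0 h) and from cells given 0.2 µM GSK-LSD1, an inhibitor of the histone demethylase LSD1 that is used to push these cells towards monocytic differentiation, for 8 h and for 24 h. All 3 were made from total RNA of the same line in the same medium after removal of ribosomal RNA. Each time point is 1 library from a bulk culture, so a difference compares 2 libraries, has no replicate check and is given with an interval for counting error only, and fewer cells of a type cannot be told apart from less RNA per cell. These data hold no untreated library at 8 h or 24 h. The inhibitor therefore cannot be told apart from time in culture.

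Iron enters most cells as transferrin through the transferrin receptor (TFRC), is stored inside a shell of ferritin heavy and light subunits (FTH1, FTL) and leaves through ferroportin (SLC40A1), the only known cellular iron exporter. When iron is scarce, iron regulatory proteins bind a hairpin called the iron-responsive element, which blocks translation of mRNAs that carry it before the coding sequence and stabilises the TFRC mRNA, which carries it after the coding sequence. HMOX1 frees iron by breaking down heme. NQO1, GCLM, TXNRD1, HMOX1 and the ferritin genes are classical targets of NRF2, a transcription factor that binds the antioxidant response element. Monocytes and macrophages are known for taking up and recycling iron, and for producing oxidants.

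The iron-responsive elements are shown because FTL and SLC40A1, the 2 iron genes with enough counts, both carry one in the 5′ UTR while their mRNA levels differed from the control in opposite directions. The search took the RNA strand of the MANE Select transcripts in GENCODE v44 (GRCh38) and asked for C, 5 bases, CAGTG, any base but G, and 5 bases that can pair with the former 5, with G to T pairs allowed. It found a match in the 5′ UTR of 11 of 19061 coding transcripts (0.0577%), among them FTH1, FTL and SLC40A1, and in the 3′ UTR of 98 (0.514%), among them TFRC with 4 matches. The loop of the hairpin, CAGTG and the base after it, is in capitals, and a match is a description of the sequence and not a measured binding site. The libraries measured mRNA and not its translation.
FTL, chr19:48965336-48965362, forward strand: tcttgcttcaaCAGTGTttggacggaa
FTH1, chr11:61967575-61967601, reverse strand: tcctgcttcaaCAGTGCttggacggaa
SLC40A1, chr2:189580662-189580688, reverse strand: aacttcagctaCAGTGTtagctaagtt

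For the antioxidant genes, the core TGACNNNGC of the antioxidant response element was searched on both strands from 1000 bases before to 50 bases after the start of the MANE Select transcript. It occurred in 6598 of 19061 such windows (34.6%), so its presence is common. Of the 10 genes, NQO1 and GCLM had 1 match each, GPX4 1 and TXNRD1 2, and no match was found in the windows of FTH1, FTL, TFRC, SLC40A1, HMOX1 and SOD2. Sequence outside the windows was not searched, so a gene without a match may carry the core elsewhere. The matches of the 2 genes with counts are printed on the strand of the gene with the core in capitals. That of NQO1 begins 455 bases before the start and also holds TGACTCA, the motif of AP-1 factors, and that of GCLM lies on the opposite strand and begins 34 bases before the start.
NQO1, chr16:69726999-69727023, reverse strand: agtcacagTGACTCAGCagaatctg
GCLM, chr1:93909448-93909472, reverse strand: cgatttctGCTTAGTCAttgtcttc

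The control library held 1475938 counts, that of 8 h 1310912 and that of 24 h 1444011, and values are given as counts and as CPM, counts per 1000000 after TMM scaling of the library sizes. A count of 0 allows up to 3 counts, which is 1.95 CPM at 0 h, 2.34 at 8 h and 2.11 at 24 h, for counting error only. Of 9 monocytic marker genes chosen for the cell type, 5 reached 10 counts, among them LYZ with 655, 747 and 1773 counts, while the rows of CD33 and CSF1R were at 0. The 7 markers of T, B, epithelial, hepatic and erythroid cells were at 0 in every library. Since CD33 and CSF1R were at 0 as well, these rows do not show that such cells were absent. The row of CD86, the surface marker the study used to follow LSD1 inhibition, had 1, 19 and 37 counts, and that of KDM1A, which encodes LSD1, had 1, 0 and 1. The library of 8 h stood apart in mitochondrial ribosomal RNA, with 9 counts of MT-RNR2 against 1661 at 0 h and 743 at 24 h. The part of this in the 8 h values was not tested. That library enters the comparison of 24 h with 0 h only through the scaling and the choice of tested features.

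Reads of the 10 genes were counted very unevenly. FTL, GCLM, SLC40A1, NQO1 and SOD2 reached at least 10 counts in a library. FTH1 had 6, 1 and 5 counts, in order of time from the control library to that of 24 h, and TFRC had 1, 1 and 0. GPX4, the enzyme that reduces lipid peroxides in membranes, and TXNRD1, the reductase of cytosolic thioredoxin, were at 0 in all 3 libraries. The HMOX1 accession was not analysed here. A row at 0 did not show that the gene was silent, since rows of enzymes that every cell uses, such as TKT and TALDO1 of the pentose phosphate pathway, were at 0 as well, both picked after their values were seen.

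GENCODE v44 lists 1 coding sequence for FTL, 2 for GCLM and 4 for SLC40A1, but 7 each for FTH1 and TFRC, 13 for TXNRD1 and 11 for GPX4. NQO1, with 6, and SOD2, with 9, were counted nonetheless. The 7 markers of other cell types, all at 0, were left out of the next comparison. Among the remaining 87 rows of the lists used here, 18 of 35 with 1 or 2 coding sequences reached 10 counts (51.4%). With 3 to 5 it was 13 of 26, and with 6 or more 9 of 26 (34.6%). Rows at 0 in every library, as those of GPX4 and TXNRD1, were 11 of 35, 8 of 26 and 8 of 26 in the same order, a similar share in each. The part of the number of coding sequences in the counts was not tested. Other exons also lie over these genes. Exons of BEST1, on the other strand, cover 73.2% of the exon bases of FTH1, and those of a long non-coding RNA on the other strand cover 22.8% of NQO1, while the other 8 genes share none. The treatment of reads that fall on several features is not given in the sources used here, and the part of these overlaps in the low counts was not tested.

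**Figure D1:**
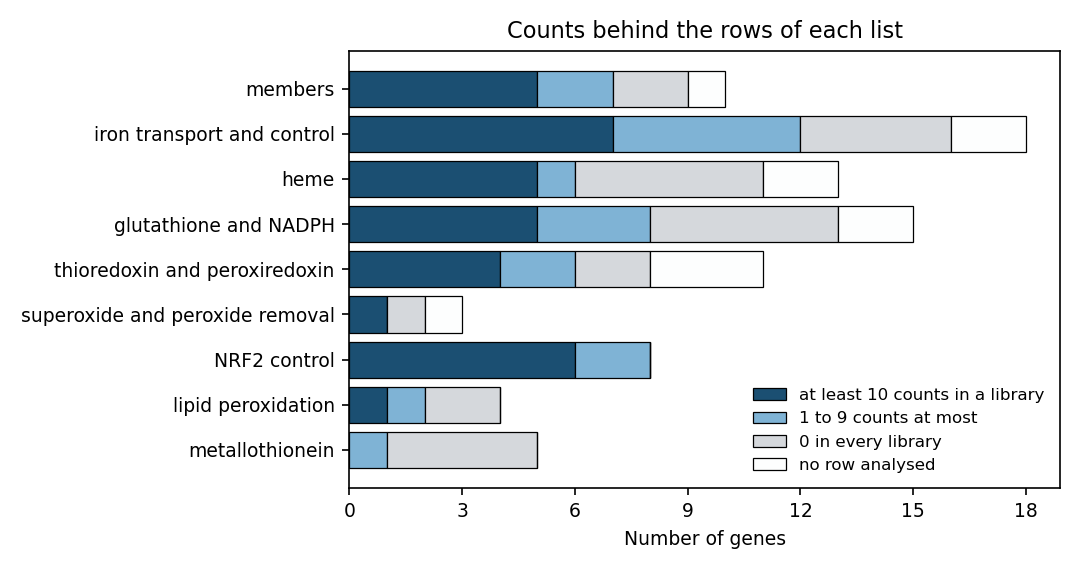
Number of genes in each list (x axis) by the counts behind their rows. Of the 10 members, 5 reached 10 counts in a library, 2 had fewer, 2 were at 0 in every library and 1 was not analysed, and of the 77 other pathway genes 29 reached 10 counts.

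FTL, the light subunit of ferritin, was among the most counted features of the whole table, ranking 8th at 0 h, 5th at 8 h and 7th at 24 h. The gene lies on chromosome 19 of GRCh38 (48965309 to 48966879, forward strand). Its counts were 8859 in the control library, 10149 after 8 h and 10848 after 24 h. They correspond to levels of 5766 CPM (exact Poisson 95% interval 5647 to 5888), 7926 CPM (7773 to 8082) and 7638 CPM (7495 to 7783). Both treated libraries lay above the control, and their intervals did not overlap with it. As a share of all counts, without scaling, FTL took 0.600% before treatment (Wilson 95% bounds 0.588% and 0.613%), 0.774% after 8 h (0.759% and 0.789%) and 0.751% after 24 h (0.737% and 0.766%). The log2 ratio to 0 h was 0.46 at 8 h (exact 95% counting interval 0.42 to 0.50) and 0.41 at 24 h (0.36 to 0.45), a level 1.38-fold and 1.32-fold that of 0 h. These ratios stayed under the 2-fold threshold used for calls. Among the 9609 tested features, those that reached 10 counts in 1 library or more, 17.2% had a fold change as high at 8 h and 22.5% at 24 h. These shares include features of few counts, whose fold changes hold more counting error than that of FTL. A counting interval wholly above 0, at any size of change, was found for 11.7% of tested features at 8 h and 13.0% at 24 h. From 8 h to 24 h the log2 ratio was -0.05 (-0.09 to -0.01).

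Processed pseudogenes resemble the FTL mRNA, and reads can be split between them. GENCODE v44 names 16 FTL pseudogenes, whose 17 features together held 11, 14 and 14 counts, small beside the row of FTL itself. Those of FTH1 number 25, and their 26 features held 20, 24 and 32 counts. These were more counts than the FTH1 row had in each library, so the row is not read as the level of the heavy subunit. The log2 ratio of the summed FTH1 pseudogene features was 0.53 at 8 h (-0.39 to 1.46) and 0.79 at 24 h (-0.06 to 1.67), and both intervals include 0. The FTH1 row held 0.068% of the FTH1 and FTL counts before treatment (exact 95% bounds 0.025% and 0.147%), 0.0099% after 8 h (0.00025% and 0.055%) and 0.046% after 24 h (0.015% and 0.107%), and these intervals overlap.

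SLC40A1, which encodes the iron exporter ferroportin, fell. Its gene lies on chromosome 2 (189560590 to 189583758, reverse strand). Its counts were 97 in the control library, 39 after 8 h and 34 after 24 h, or 63.1 CPM (51.2 to 77.0), 30.5 CPM (21.7 to 41.6) and 23.9 CPM (16.6 to 33.4). The control library was the highest, and neither treated interval reached it. At 8 h the log2 ratio to 0 h was -1.05 (-1.63 to -0.50), 2.07-fold lower, and at 24 h it was -1.40 (-2.01 to -0.82), 2.64-fold lower. SLC40A1 was the single tested member past the 2-fold threshold downwards at either time, where 6.02% of all tested features fell past it at 8 h and 5.58% at 24 h. The call at 8 h is close to the threshold: its log2 fold change was -1.02 with the prior count of 2 used for calls and -0.97, no longer past it, with a prior count of 5. Between 8 h and 24 h a further change was not detectable at this depth, with a log2 ratio of -0.35 (-1.06 to 0.35). Both comparisons with 0 h share the control library, so their common direction rests on 1 control value.

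TFRC, the iron importer, could not be followed through its own row, which never exceeded 1 count. Its gene lies on chromosome 3 (196012511 to 196082153, reverse strand). Of its 38 annotated transcripts, 10 have features of their own in the table. They summed to 17, 18 and 18 counts, with a log2 ratio of 0.35 at 8 h (-0.69 to 1.39) and 0.20 at 24 h (-0.84 to 1.24). At this depth a change in either direction was not detectable, and these features cannot be taken to stand for the coding mRNA. The share of TFRC in the counts of TFRC, FTH1 and FTL was at most 0.0113%, with overlapping intervals in the 3 libraries.

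**Figure D2:**
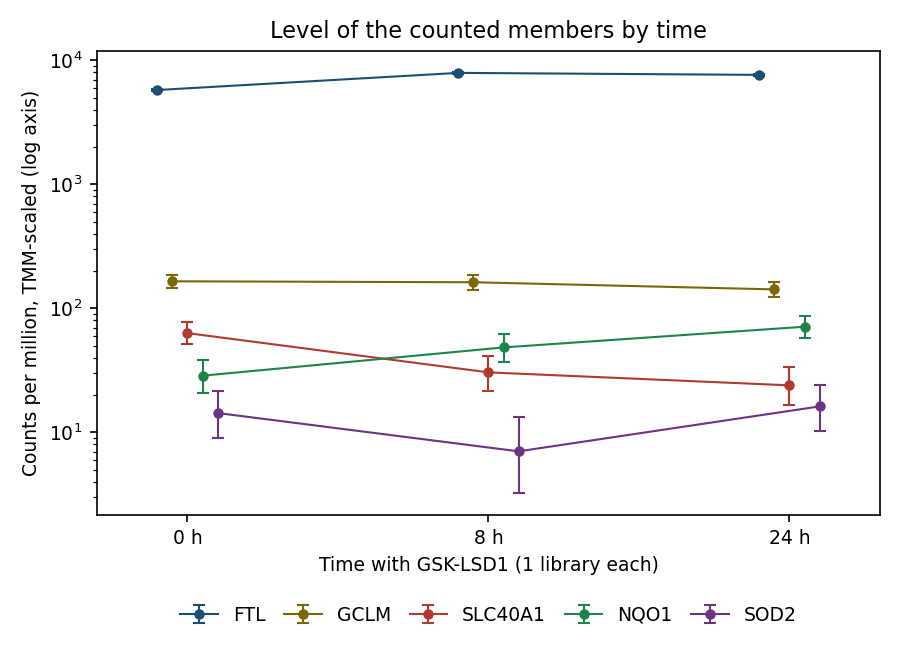
TMM-scaled CPM on a log axis for the 5 members with at least 10 counts in any library, by hours of GSK-LSD1, with exact Poisson 95% intervals of 1 library each. Read gene by gene, since CPM is not scaled for length, SLC40A1 went from 63.1 to 23.9 CPM and NQO1 from 28.6 to 71.1 CPM, while the intervals of GCLM overlap.

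NQO1, a cytosolic reductase that detoxifies quinones, rose. The gene lies on chromosome 16 (69706996 to 69726668, reverse strand). Counts went from 44 in the control library to 62 after 8 h and 101 after 24 h, or 28.6 CPM (20.8 to 38.5), 48.4 CPM (37.1 to 62.1) and 71.1 CPM (57.9 to 86.4). Each later library was higher than the one before, and the intervals of 0 h and 24 h did not overlap. The log2 ratio to 0 h was 0.76 at 8 h (0.18 to 1.35), under the threshold, and 1.31 at 24 h (0.79 to 1.86), 2.48-fold higher. NQO1 was the single member past the threshold upwards at 24 h, where 6.19% of all tested features rose past it, and 3.85% of features had a fold change as high. From 8 h to 24 h the log2 ratio was 0.55 (0.08 to 1.03).

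GCLM, the modifier subunit of the enzyme that starts glutathione synthesis, stayed close to its control level. Its gene lies on chromosome 1 (93885199 to 93909456, reverse strand). It had 254, 208 and 202 counts, or 165 CPM (146 to 187), 162 CPM (141 to 186) and 142 CPM (123 to 163), and the intervals of the 3 libraries overlap. The log2 ratio to 0 h was -0.03 at 8 h (-0.30 to 0.24) and -0.22 at 24 h (-0.49 to 0.06). At both times the whole interval of GCLM lay within 0.5 of no change. The interval of NQO1 at 24 h began above the end of that of GCLM. Both genes carry the antioxidant core shown above, and its part in their levels was not tested. The row of GCLC, the catalytic partner of GCLM, was not analysed here, so the planned ratio of the 2 subunits was not computed.

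SOD2, the superoxide dismutase of mitochondria and a known target of inflammatory signalling, was counted sparsely. Its gene lies on chromosome 6 (159669069 to 159762529, reverse strand). The control library held 22 counts, that of 8 h 9 and that of 24 h 23, or 14.3 CPM (8.97 to 21.7), 7.03 CPM (3.21 to 13.3) and 16.2 CPM (10.3 to 24.3). The lowest value was that of 8 h, but its interval overlapped with both others. The log2 ratio was -1.03 at 8 h against 0 h (-2.33 to 0.15), 0.18 at 24 h against the control (-0.73 to 1.09) and 1.20 at 24 h against 8 h (0.04 to 2.50). With the prior count of 2 used for calls, only the last of these passed the threshold, at a log2 fold change of 1.06, where 4.03% of all tested features rose past it. With a prior count of 5 it was 0.90 and no longer past the threshold. It rests on the 9 counts of the 8 h library. SOD2 at 24 h against 0 h, which uses that library only in the scaling, showed no change past counting error. The ratio of SOD2 to SOD1 was not computed, since the row of SOD1 was not analysed here.

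**Figure D3:**
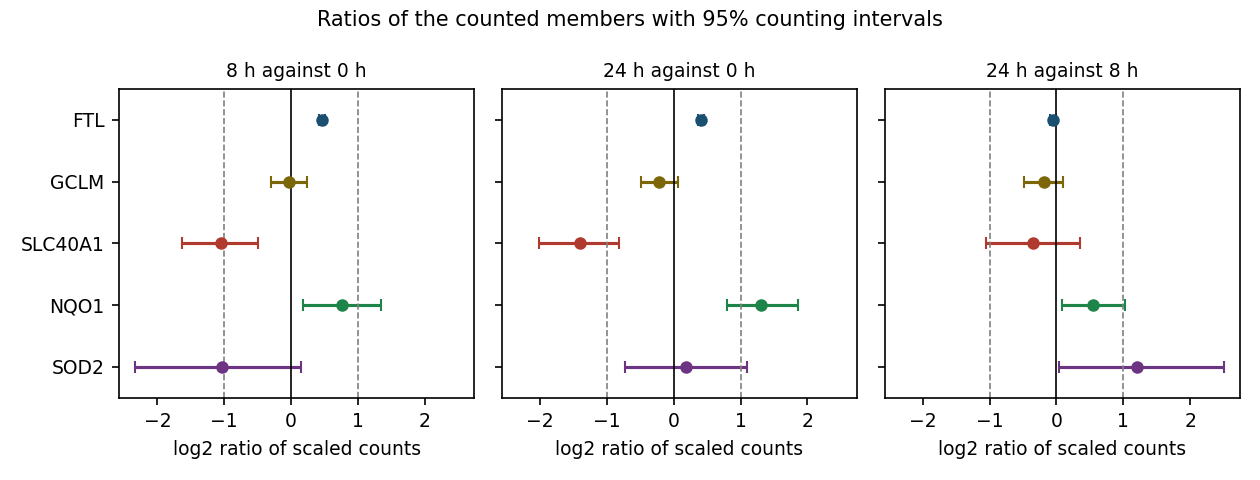
Log2 ratios of TMM-scaled counts (x axis) with exact 95% counting intervals for the 5 counted members in the 3 comparisons, with dashed lines at the 2-fold threshold. SLC40A1 lay below 0 at both times against 0 h, at -1.05 and -1.40, NQO1 above 0 at 0.76 and 1.31, and GCLM close to 0.

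In all, 1 of the 5 counted members was past the threshold at 8 h, 2 at 24 h against the control and 1 from 8 h to 24 h, where 10.5%, 11.8% and 5.99% of all tested features were past it in either direction. No member rose past it at 8 h, where 4.51% of features did, and no member fell past it from 8 h to 24 h, where 1.97% did. The median log2 fold change of the 5 was -0.03 at 8 h and 0.16 at 24 h, against -0.01 for all tested features at both times. Judged by a counting interval wholly on 1 side of 0, FTL and NQO1 were higher and SLC40A1 was lower at both times. Of all tested features, 11.7% were higher and 9.71% lower by that measure at 8 h, and 13.0% and 12.6% at 24 h. From 8 h to 24 h, NQO1 and SOD2 were higher and FTL lower by that measure, as were 4.87% and 5.58% of features. With 5 genes chosen by name, these numbers describe the members and do not set them apart from other features.

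Levels of different genes were compared per kilobase of the MANE Select transcript, whose length need not be that of the counted feature. FTL stood at 6621 CPM per kilobase at 0 h, followed by GCLM at 33.9 (29.8 to 38.3), SLC40A1 at 18.96 (15.4 to 23.1), NQO1 at 11.4 (8.26 to 15.2) and SOD2 at 1.01 (0.634 to 1.53). No neighbours in that order overlapped at 0 h. The place of SOD2 depends on its MANE Select length of 14167 bases, against 2521 for NQO1. Before division by length, SOD2 at 14.3 CPM (8.97 to 21.7) and NQO1 at 28.6 CPM (20.8 to 38.5) overlapped at 0 h. At 24 h the order was FTL at 8769, GCLM at 29.1 (25.2 to 33.4), NQO1 at 28.2 (23.0 to 34.3), SLC40A1 at 7.19 (4.98 to 10.1) and SOD2 at 1.14 (0.725 to 1.72). GCLM and NQO1 could not be told apart at 24 h, and NQO1 had passed SLC40A1. Since reads of these genes can stand under other features, the levels are those of the rows.

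The neighbourhood of the 10 genes was read from 77 further genes of iron transport, heme, glutathione, thioredoxin, peroxide removal, NRF2 control, lipid peroxidation and metallothioneins, paired with their UniProt accessions from general knowledge. Of the 67 with a row, 29 reached 10 counts, 15 had fewer and 23 were at 0 throughout. None of the 29 rose past the threshold at 8 h or 24 h against 0 h, where 4.51% and 6.19% of all tested features did. At 8 h 1 of the 29 fell past it (3.45%, against 6.02% of all tested features) and at 24 h 2 did (6.90%, against 5.58%). From 8 h to 24 h, 0 passed it in either direction, against 5.99% of all tested features. Their median log2 fold change was 0.01 at 8 h and -0.08 at 24 h, near the -0.01 of all tested features. By the counting interval, 5 of the 29 were higher and 6 lower at 8 h, where 11.7% and 9.71% of all tested features were. At 24 h they were again 5 and 6 of the 29, where 13.0% and 12.6% of all tested features were.

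The 2 genes past the threshold were SLC7A11 and CAT. SLC7A11, the cystine transporter that feeds glutathione synthesis, had 254, 78 and 64 counts, with a log2 ratio of -1.44 at 8 h (-1.83 to -1.07) and -1.88 at 24 h (-2.29 to -1.47). CAT, the catalase that breaks down hydrogen peroxide, had 206, 101 and 86 counts, with a log2 ratio of -0.77 at 8 h (-1.12 to -0.42) and -1.15 at 24 h (-1.53 to -0.78). The control library was the highest for both genes. SLC7A11 is a classical NRF2 target like NQO1 and GCLM, and the 3 genes moved down, up and little at 24 h, with intervals that do not overlap. The part of NRF2 in their levels was not tested.

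Of the 7 counted genes of iron transport and its control, none passed the threshold, and the median log2 fold change was -0.33 at 8 h and -0.37 at 24 h. The most counted of them, SLC39A14, a metal importer, had 584, 388 and 363 counts and a log2 ratio of -0.57 at 24 h (-0.77 to -0.38). NCOA4, the receptor that delivers ferritin to lysosomes, had 351, 351 and 367 counts and a ratio of 0.26 at 8 h (0.05 to 0.48) and 0.18 at 24 h (-0.04 to 0.39). IREB2, an iron regulatory protein that binds the hairpins shown above, was looked at after the values were seen. It had 392, 288 and 275 counts and a ratio of -0.40 at 24 h (-0.63 to -0.17). The 5 counted heme genes had medians of -0.25 and -0.24, and the largest departure, also picked afterwards, was that of FECH, the ferrochelatase that inserts iron into heme, which had 52, 26 and 24 counts. Its level was 1.67-fold lower at 8 h (log2 interval -1.48 to -0.03) and 2.003-fold lower at 24 h (log2 interval -1.76 to -0.28), and with the prior count used for calls its log2 fold change at 24 h was -0.95, under the threshold. With scaling by total counts, 3 instead of 2 pathway genes fell past the threshold at 24 h.

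Among the 5 counted genes of glutathione and NADPH supply, 4 had log2 fold changes above 0 at both times, the exception being SLC7A11. Of all 9609 tested features, 4703 lay above 0 at 8 h and 4727 at 24 h. ME1 and PGD, which produce NADPH and were picked after their values were seen, had 154, 214 and 253 counts and 182, 209 and 276 counts. Their log2 ratios at 24 h were 0.83 (0.53 to 1.13) and 0.71 (0.44 to 0.99), beyond counting error but under the threshold. The 4 counted thioredoxin and peroxiredoxin genes ranged from -0.18 to 0.43 at 24 h. TXNIP, which binds and inhibits thioredoxin, had 1113, 1118 and 1287 counts and a ratio of 0.32 at 24 h (0.21 to 0.44), and PRDX5, a peroxiredoxin, had 332, 390 and 415 counts and a ratio of 0.44 (0.22 to 0.65). TXN itself, the substrate of TXNRD1, had 226, 220 and 214 counts and a ratio of 0.03 at 24 h (-0.24 to 0.31).

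The 6 counted genes that control NRF2 lay between -0.44 and 0.06 at 24 h, with a median of -0.10, and none passed the threshold. MAFG, a small MAF partner of NRF2, was the most counted. It had 624, 497 and 465 counts and a log2 ratio of -0.31 at 24 h (-0.49 to -0.14). NFE2L2, which encodes NRF2, and BACH1, a repressor of HMOX1 and the ferritin genes, were looked at after the values were seen. NFE2L2 had 71, 41 and 48 counts and a ratio of -0.45 at 24 h (-1.01 to 0.10), and BACH1 had 264, 221 and 255 counts and a ratio of 0.06 (-0.19 to 0.32). AIFM2, also picked afterwards, was the 1 counted gene of lipid peroxidation, with a ratio of 0.25 at 24 h (-0.40 to 0.89), and no metallothionein reached 10 counts.

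**Figure D4:**
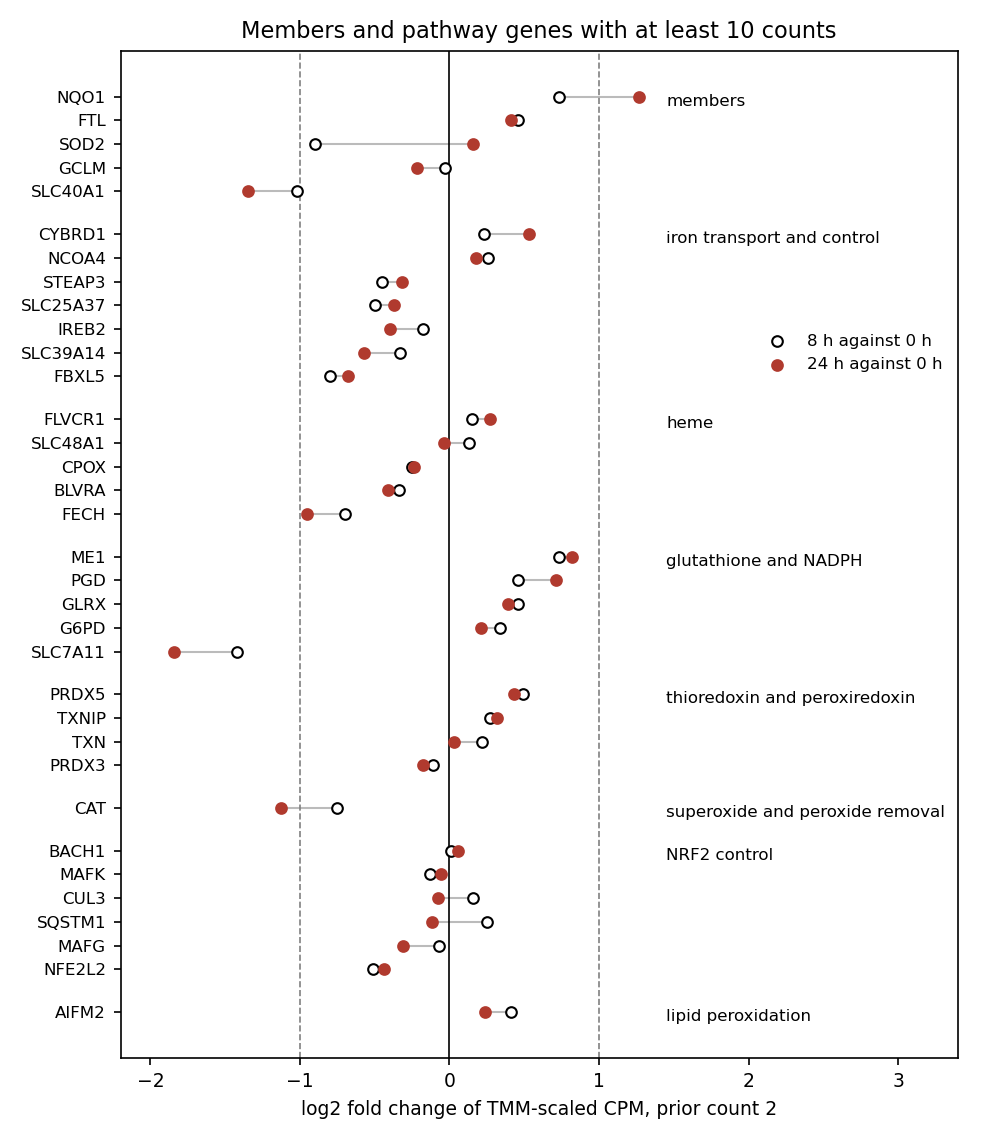
Log2 fold change of TMM-scaled CPM with a prior count of 2 (x axis) at 8 h (open circles) and 24 h (filled circles) against 0 h, for the 5 counted members and the 29 counted pathway genes grouped by list, with dashed lines at the 2-fold threshold. SLC40A1 and SLC7A11 fell past the threshold at both times and CAT at 24 h, NQO1 rose past it at 24 h, and the remaining genes stayed within it.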

How the data were processed

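Reads were aligned by the authors to hg38 through Seq2science, and the submitters' processing notes name fastp and STAR. The deposited values are raw counts of reads, 1 column a library. The counting tool, its annotation and its strand setting are not given in the sources used here. The 10 genes and all lists were chosen with earlier results of these data known.

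TMM factors came from edgeR 4.0.16, over the 9609 features that reached 10 counts in any library. Calls used log2 CPM with a prior count of 2 and a threshold of 1 (2-fold). Ratios of single genes used no prior count and carry exact Clopper-Pearson 95% intervals conditional on the sum of both counts. Because a time point is 1 library, there are no p-values. Named pathway genes were those past the threshold, the 5 most counted and the partners in planned ratios, and others are marked where they appear. Alternatives were DESeq2 1.42.0 size factors, total counts, other prior counts, filters and thresholds. Coordinates are those of GENCODE v44, on the same build as the files.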

Additional observations from a re-analysis of the deposited data

How the results depend on the processing

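Of 95 alternative values of the members' log2 ratios, 91 lay within the counting interval of the reported one, 4 lay outside it and none of the called ones reversed. That interval is narrow for FTL and wide for genes of few counts, so shifts of equal size can fall on either side. The 4 are those of FTL under total counts with and without mitochondrial genes, 0.37 and 0.37 at 8 h and 0.32 and 0.33 at 24 h. Larger shifts within the interval were those of SOD2 with a prior count of 5, to -0.76 at 8 h and to 0.90 from 8 h to 24 h. Of 124 alternative numbers past the threshold, 92 stayed within 1.5 times the reported one and 32 did not. For the members, no gene was past a threshold of 2 (0 higher, 0 lower). A threshold of 0.5 left 1 higher and 2 lower at 8 h and 2 higher from 8 h to 24 h. Intervals wholly past 0 left 2 higher in each comparison and 1 lower from 8 h to 24 h. Without a filter there were 2 lower at 8 h and 2 higher from 8 h to 24 h. A prior count of 5 left 0 lower at 8 h and 0 higher from 8 h to 24 h, and a minimum of 50 counts also left 0 there, since SOD2 was then not tested. For the pathway list, 0 were lower past a threshold of 2. A threshold of 0.5 left 1 higher and 5 lower at 8 h, and 3 higher and 5 lower at 24 h. Intervals wholly past 0 left 5 higher and 6 lower at each time against 0 h, and 2 lower from 8 h to 24 h. Under total counts, 3 were lower at 24 h. Without a filter 3 were higher and 2 lower at 8 h, 1 was higher at 24 h, and 1 was higher and 2 lower from 8 h to 24 h. TMM over the 0 h and 24 h libraries alone, added after seeing the data, gave the reported numbers at 24 h. No paired analysis was possible because each time point has 1 library, and for the same reason no library could be left out. Ratios with GCLC and SOD1 gave no value. No ratio is given for the rows of TFRC, GPX4 and TXNRD1, which never exceeded 1 count. The intervals of FTH1 and SOD2 include 0 at both times against 0 h.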
